A study of Mus musculus with 11 samples.

Results

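Olfactory receptor (Olfr) and vomeronasal receptor (Vmn and V1r) genes form the largest gene families of the mouse genome and lie in dense clusters of near-identical neighbours. Their copy number was read in mammary tumours from all autosomal array probes whose gene name starts with Olfr, Vmn, V1r or V2r. This gave 127 genes with 321 probes, of 20003 autosomal gene names on the array. By name, 46 of them were Olfr genes with 55 probes, 75 were Vmn2r genes or pseudogenes with 259 probes, and 6 were V1r genes with 7 probes. A further 2 members on the X chromosome were left out.

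The study compared genomic DNA of 11 mammary tumours with liver DNA of the same animals by array comparative genomic hybridisation (aCGH), in which both DNAs compete for the same probes. The animals were Pik3ca H1047R mice, which carry the activating H1047R change in the catalytic subunit of phosphoinositide 3-kinase, on a mixed FVBN/Bl6 background. Each tumour was 1 biological replicate and was labelled with Cy5, and its liver with Cy3, so a log2 ratio above 0 means more signal from tumour DNA. The promoter or Cre line behind the mutant, and the age of the mice, are not given in the sources used here, and nothing but the matched liver served as control.

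Odorant receptors sit on olfactory sensory neurons of the nose, and each neuron uses a single allele of a single receptor gene. Class I odorant receptors resemble those of fish and share a cluster on chromosome 7, and class II receptors are spread over most chromosomes. V1r and V2r receptors work in the vomeronasal organ, where they bind pheromones and other social cues, and the Vmn2r genes encode the V2r type. The clusters expand and contract between mouse strains, and their repeated sequence leaves little unique sequence for array probes.

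The array covered a small share of both families. The gene table of a later build lists 2046 autosomal genes and pseudogenes with these prefixes, and the 127 members are 6.21% of that number. Of the members, 67 had 1 probe, 55 had 2 to 5 and 5 had 6 or more. Vmn2r99 alone held 76 probes, spread over 1.09 Mb, so that name covers neighbouring sequence too. Members lay on 14 autosomes, with 43 genes on chromosome 7 and 24 on chromosome 17. Of the array names, 120 are current symbols and 5 matched through an older name (among them V1rd6, now Vmn1r65). The remaining 2, one of them V1ra1, matched more than 1 current gene.

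A gene's own value is the mean log2 ratio of its probes after subtracting the array median. Its local deviation is that value minus the mean of the non-receptor probes within 5 Mb, so gains or losses of a whole chromosome cancel, as does the centring of the array. The noisiest arrays were those of tumours 9 and 11, where neighbouring probes differed with an SD of 0.55 and 0.51, and the quietest was tumour 8 with 0.13. A spot was dim where the scanner software did not mark both channels as well above background. Dim spots were 0.0803% to 12.8% of the 174305 genomic spots of an array. In tumour 9, 20.6% of receptor probes were dim, against 12.5% of all autosomal probes. Over all autosomal probes, tumour 11 correlated with tumours 4, 5, 9 and 10 at Pearson r of -0.60, -0.61, -0.65 and -0.32. With tumours 1 and 6 the r was above 0, at 0.082 and 0.25. With tumours 2, 3, 7 and 8 it was -0.055, -0.094, -0.215 and -0.036. The labels give the same dyes to all 11 arrays. The direction of tumour 11 is therefore not settled, and results are given as labelled and with its ratios turned.

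The probes of the genes that the results turn on are shown first, since they differ in base composition. Each is printed as the array design gives it, with G and C in capitals and its position on mouse build mm9. Those of Vmn2r8, Olfr703, Olfr553 and Olfr722, which lay on the same side of 0 in all 11 tumours, are followed by the probe of Olfr1164, the least GC-rich of those shown, the 3 of Vmn2r16, that of Vmn2r54 and the dimmest of Vmn2r81.
Vmn2r8, chr5:109232808-109232856: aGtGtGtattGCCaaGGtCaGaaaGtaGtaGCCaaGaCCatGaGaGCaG
Olfr703, chr7:113988690-113988744: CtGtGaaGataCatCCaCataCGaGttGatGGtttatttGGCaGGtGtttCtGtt
Olfr553, chr7:109762835-109762894: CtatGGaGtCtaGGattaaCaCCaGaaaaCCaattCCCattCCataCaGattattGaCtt
Olfr722, chr14:50515601-50515660: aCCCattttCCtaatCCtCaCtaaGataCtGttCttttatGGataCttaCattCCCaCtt
Olfr1164, chr2:87933081-87933140: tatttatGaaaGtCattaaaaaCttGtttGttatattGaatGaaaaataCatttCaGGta
Vmn2r16 a, chr5:109767888-109767947: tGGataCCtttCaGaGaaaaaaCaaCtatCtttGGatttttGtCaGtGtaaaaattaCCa
Vmn2r16 b, chr5:109776432-109776491: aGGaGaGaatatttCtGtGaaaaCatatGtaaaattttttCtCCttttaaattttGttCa
Vmn2r16 c, chr5:109790608-109790667: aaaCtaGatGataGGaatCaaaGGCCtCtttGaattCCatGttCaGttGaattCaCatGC
Vmn2r54, chr7:13203062-13203121: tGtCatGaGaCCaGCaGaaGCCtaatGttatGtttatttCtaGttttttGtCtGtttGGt
Vmn2r81, chr10:78714358-78714417: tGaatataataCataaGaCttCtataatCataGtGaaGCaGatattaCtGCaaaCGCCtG

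The GC content of these probes ran from 20% for Olfr1164 to 46.9% for Vmn2r8. The median GC content was 35.1% over the 127 receptor genes and 36.7% over all autosomal genes. Their median brightness, the mean of the log2 signals of both channels over all arrays, was 9.73 against 10.06. Receptor probes shared little sequence with each other. The longest run of bases that a probe had in common with a probe of another member, on either strand, was 11 bases in the median and 16 at most, between Olfr553 and Vmn2r82 and between Vmn2r26 and Vmn2r75. How often each probe sequence occurs in the genome was not tested.

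Receptor clusters followed the copy number of their chromosomes. Runs of at least 5 receptor probes with gaps of at most 1 Mb gave 11 clusters with 268 probes of 84 genes. The V2r cluster on chromosome 3 (Vmn2r1 to Vmn2r-ps11, 18 probes) had an own value of 0.43 in tumour 1 and 0.40 in tumour 2, and its surroundings had 0.53 and 0.47. The 4 clusters on chromosome 7 lay low together in tumour 1, with own values of -0.37 (Vmn2r53 to V1rk1), -0.45 (Vmn2r57 to Vmn2r63), -0.40 (Vmn2r65 to Vmn2r79) and -0.27 (Olfr547 to Olfr658). Their surroundings there had -0.42, -0.39, -0.37 and -0.37. The V2r cluster on chromosome 6 (Vmn2r19 to Vmn2r27, 15 probes) had -0.41 in tumour 1 and -0.25 in tumour 7, against -0.37 and -0.33 around it. Over the 121 pairs of cluster and tumour, own and surrounding values had a Pearson r of 0.78, given as a description because pairs share arrays and chromosomes. The own values had an SD of 0.20 and the local deviations an SD of 0.13.

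**Figure D1:**
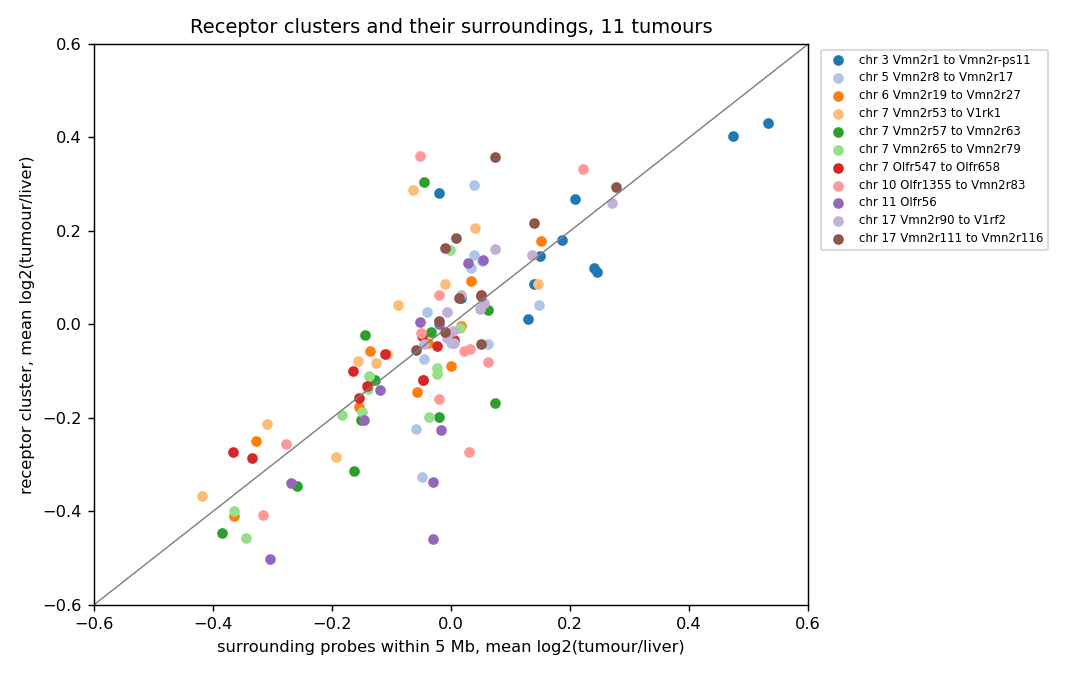
Mean log2 ratio of tumour over liver in each of 11 receptor clusters (vertical axis) against the non-receptor probes within 5 Mb (horizontal axis), 1 point per cluster and tumour, coloured by cluster, with the line of equal values. The points follow the line with r = 0.78, and the chromosome 3 cluster reaches 0.43 where its surroundings reach 0.53.

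Deviations varied least in the following 3 clusters. The chromosome 17 cluster from Vmn2r90 to V1rf2, the largest V2r cluster with 115 probes of 16 genes over 3.559 Mb, had local deviations from -0.04 to 0.09 with a mean of 0.01 ± 0.04 (SD, n = 11). Its own value was highest in tumour 8 at 0.26, where the surroundings had 0.27. The class I odorant receptor cluster on chromosome 7, from Olfr547 to Olfr658 with 11 probes of 11 genes, deviated by -0.07 to 0.09 (mean 0.02 ± 0.05). The chromosome 6 V2r cluster deviated by -0.09 to 0.08 (mean -0.01 ± 0.06). Vmn2r99, with its 76 probes, had a lowest, median and highest deviation of -0.03, 0.01 and 0.09. These are means over many probes, and runs of 10 probes inside Vmn2r99 varied more. The widest ran from -0.37 to 0.43 over the tumours and the narrowest from -0.03 to 0.17.

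No stretch of receptor probes passed the test across tumours. Clusters were divided into 23 stretches of about 10 probes and tested with limma among 16128 autosomal stretches, and a call needed both a mean of 0.1 or more in size and a Benjamini-Hochberg adjusted p under 0.05. In limma, 0 of 23 were called in either direction, against 0.143% higher and 0.0434% lower of all stretches. At an unadjusted p below 0.05 there were 4 of 23, and 16.2% of all stretches. The lowest adjusted p was 0.24 (limma), for Vmn2r53 to V1rk1 on chromosome 7 with a mean of 0.08 ± 0.12 (SD). With tumour 11 turned, 2 receptor stretches were called lower, against 3.98% of all stretches. They were Vmn2r60 to Vmn2r63 with a mean of -0.10 (limma adjusted p = 0.039) and a Vmn2r99 stretch with a mean of -0.16 (limma adjusted p = 0.021). Without tumour 11, the Vmn2r99 stretch was called at a mean of -0.13 (limma adjusted p = 0.028).

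Single tumours differed more. A cluster was counted as deviating in a tumour at an absolute deviation of at least 0.2. Of 121 pairs, 6 were higher and 6 lower (4.96% each). Of stretches of 10 non-receptor probes, 3.86% were higher and 4.04% lower. Clusters held 7 to 115 probes, so these shares and the stretch shares below are not matched to them in probe number. Tumours 9 and 11, both on slide 2 with tumours 4 and 7, held 10 of these 12 pairs. In those tumours 30.4% and 30.9% of non-receptor stretches also passed, and 5 of 11 clusters did in each. The other 2 pairs were both Olfr56 on chromosome 11, a class II odorant receptor name with 7 probes, at -0.31 in tumour 4 and -0.21 in tumour 5.

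The clusters on chromosomes 5, 7 and 10 had opposite signs in tumours 9 and 11. The cluster from Olfr1355 to Vmn2r83 on chromosome 10 (17 probes) had -0.30 in tumour 9 and 0.41 in tumour 11, and from -0.14 to 0.11 in the other 9 tumours. Vmn2r57 to Vmn2r63 on chromosome 7 (24 probes) had -0.24 and 0.35, and Vmn2r8 to Vmn2r17 on chromosome 5 (16 probes) had -0.28 and 0.26. These 3 of 11 clusters passed below in tumour 9 and above in tumour 11, against 7.76% of non-receptor stretches. The chromosome 5 value in tumour 9 includes the 3 probes of Vmn2r16, all dim there. With dim spots left out, no cluster passed in both directions. By sign alone, 9 of 11 clusters were below 0 in tumour 9 and above 0 in tumour 11, against 36.8% of stretches. With tumour 11 turned, no cluster passed in both directions, and the pairs became 1 higher and 11 lower.

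The remaining clusters past the limit moved in 1 direction. Vmn2r53 to V1rk1 on chromosome 7 (9 probes) had 0.35 in tumour 9 and between -0.09 and 0.17 elsewhere. Vmn2r1 to Vmn2r-ps11 had 0.30 in tumour 11 and Vmn2r111 to Vmn2r116 on chromosome 17 had 0.28 there. The 13 non-receptor probes inside the chromosome 3 cluster had 0.27 in tumour 11, and the 65 inside Vmn2r57 to Vmn2r63 had 0.26 in tumour 11 and -0.21 in tumour 9, each against probes outside the cluster. There the receptor probes and the probes between them had the same sign. They did not in tumour 9 for Vmn2r53 to V1rk1 (-0.13 between, 0.35 receptor) or Vmn2r8 to Vmn2r17 (0.07 and -0.28). The last value includes the dim probes of Vmn2r16. In tumour 11 Vmn2r111 to Vmn2r116 had 0.03 between and 0.28 at its receptor probes. The 26 non-receptor probes inside the chromosome 10 cluster had 0.08 in both tumours, against -0.30 and 0.41.

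**Figure D2:**
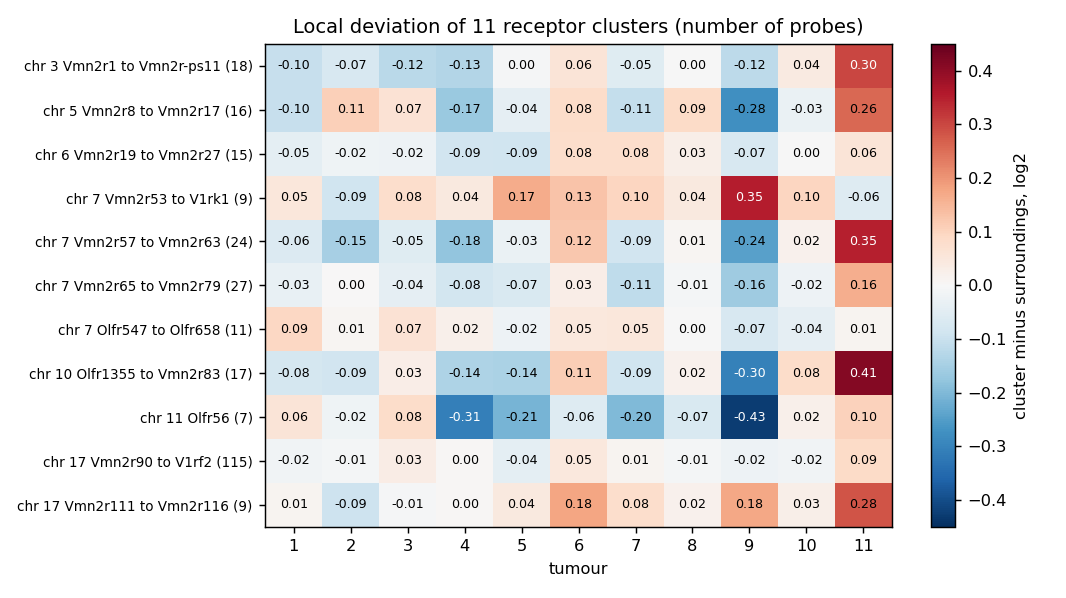
Local deviation (log2, colour and printed value) of 11 receptor clusters, with the number of probes in brackets, in tumours 1 to 11. Tumour 9 is mostly blue and tumour 11 mostly red, from -0.43 in Olfr56 to 0.41 in the chromosome 10 cluster, and the 115-probe cluster on chromosome 17 stays within -0.04 to 0.09.

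Probe brightness moved with these signs. Over the 127 receptor genes, the local deviation correlated with brightness at r = 0.72 in tumour 4, 0.63 in tumour 5, 0.65 in tumour 7 and 0.59 in tumour 9, and at -0.30 in tumour 11. Over all 20003 genes the values were 0.63, 0.65, 0.50, 0.66 and -0.54, so fainter probes read low in the first 4 tumours and high in tumour 11 across the genome. Correlations with GC content over the receptor genes were 0.47, 0.45, 0.46, 0.29 and -0.07. These correlations run over genes of 1 array, which share its hybridisation, and are given as descriptions.

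A fit of each array's log ratios on probe brightness, chosen after seeing the data, changed the cluster values. After it, 5 pairs were higher and 0 lower, against 2.67% of non-receptor stretches in each direction. No cluster was then below -0.2 in tumour 9 and above 0.2 in tumour 11, against 3.61% of stretches. The chromosome 10 cluster had -0.06 and 0.28, and the chromosome 5 cluster -0.01 and 0.11. Olfr56 in tumour 9 went from -0.43 to -0.15. Vmn2r111 to Vmn2r116 in tumour 11 went the other way, from 0.28 to 0.51.

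**Figure D3:**
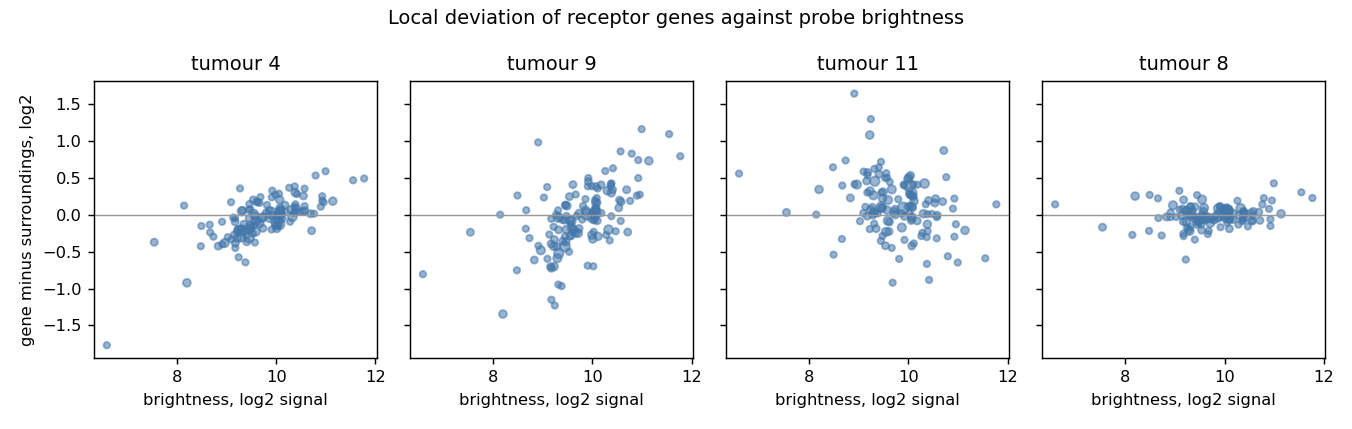
Local deviation (log2, vertical axis) of the 127 receptor genes against probe brightness (mean log2 signal over all arrays, horizontal axis) in tumours 4, 9, 11 and 8, 1 point per gene, larger with more probes. Points rise with brightness in tumours 4 (r = 0.72) and 9 (r = 0.59), fall in tumour 11 (r = -0.30) and lie nearly flat in tumour 8 (r = 0.19).

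A small number of receptor genes deviated the same way across tumours. By the labels, tumour DNA was in Cy5 on every array, with no exchange of dyes. A mean shared by all tumours therefore cannot be told apart from a dye effect of the probe, which was not tested. Of 127 members, limma called 6 higher (Vmn2r8, Olfr703, Olfr553, V1rd6, Vmn2r70 and Olfr615) and 3 lower (Olfr722, Vmn2r104 and Vmn2r109). These are 4.72% and 2.36% of members, against 1.27% and 0.99% of all genes. All 9 had 1 or 2 probes, and among genes with as few probes 6.19% and 3.09% of members were called, against 1.93% and 1.51% of all. At an unadjusted p below 0.05 the shares were 25.2% of members and 18.2% of all genes. The median of the members' means was 0.00, as it was over all genes, and 66 of 127 means were above 0.

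Vmn2r8, a V2r gene at the start of the chromosome 5 cluster, had the largest mean. Its deviations were 0.29, 0.36, 0.41, 0.49, 0.51, 0.34, 0.46, 0.23, 0.80, 0.64 and 0.14 in tumours 1 to 11. All 11 were above 0, highest in tumour 9 and lowest in tumour 11. The mean was 0.42 ± 0.19 (SD, n = 11; limma SE 0.05, adjusted p = 0.0040). Its single probe was the brightest and most GC-rich of those printed, with brightness 11.77, and after the brightness fit the mean was 0.24 (limma adjusted p = 0.071). The cluster of Vmn2r8, with 16 probes, had a mean of -0.01 ± 0.15.

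Both odorant receptors Olfr703 and Olfr553 lie on chromosome 7. Olfr703 ranged from 0.05 in tumour 2 through a median of 0.24 to 0.47 in tumour 7, with a mean of 0.26 ± 0.13 (limma adjusted p = 0.0074). Olfr553, in the class I cluster, ranged from 0.02 in tumour 11 through 0.26 to 0.46 in tumour 3, also with a mean of 0.26 ± 0.13 (limma adjusted p = 0.0074). All 11 tumours were above 0 for both. Each probe had 5 spots on the array, and neither was dim in any tumour. After the brightness fit the means were 0.27 and 0.33 (limma adjusted p = 0.0039 and 0.033).

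Olfr722 on chromosome 14 had the smallest SD of the 9 called members. It ranged from -0.27 in tumour 9 through -0.16 to -0.03 in tumour 7, with a mean of -0.15 ± 0.08 (limma adjusted p = 0.018) and -0.17 after the brightness fit (limma adjusted p = 0.011). Vmn2r104 and Vmn2r109 are V2r genes of the larger chromosome 17 cluster, with 2 probes each. Their means were -0.16 ± 0.12 and -0.19 ± 0.13 (limma adjusted p = 0.039 and 0.032). Both were below 0 in all 11 tumours and nearest to 0 in tumour 11, at -0.02 and -0.0021.

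The other called members were nearer the threshold. V1rd6 had a mean of 0.20 ± 0.16 (limma adjusted p = 0.044), with 0.51 in tumour 11 and 0.02 in tumour 4. Vmn2r70 had 0.17 ± 0.12 (limma adjusted p = 0.035), and Olfr615 had 0.15 ± 0.11 (limma adjusted p = 0.048) with -0.13 in tumour 11 as its only value below 0. After the brightness fit V1rd6, Olfr615, Vmn2r104 and Vmn2r109 had limma adjusted p of 0.42, 0.65, 0.18 and 0.053. The mean of each of the 9 genes had the same sign on all 3 slides. For every one but Olfr615 this follows by construction, since all tumours share a sign. The mean of Vmn2r8 was 0.33, 0.47 and 0.44 on slides 1, 2 and 3.

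**Figure D4:**
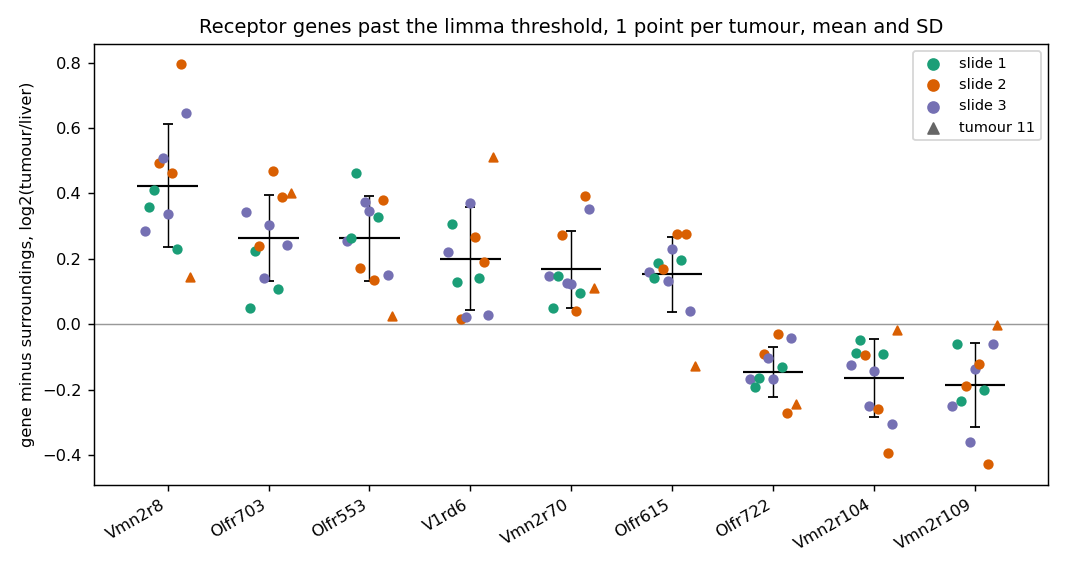
Local deviation (log2, vertical axis) of the 9 receptor genes past the limma threshold, 1 point per tumour coloured by slide, triangles for tumour 11, with the mean (bar) and SD (whiskers) over 11 tumours. Vmn2r8 has the highest mean at 0.42, and in Olfr615 the triangle at -0.13 is the only point below 0 among the genes called higher.

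Which members were called changed with the direction of tumour 11 and with which tumour was left out. With tumour 11 turned, 10 members were called higher and 15 lower, against 7.48% and 7.13% of all genes. Vmn2r8, Olfr553, Olfr615, Vmn2r104 and Vmn2r70 were still called (limma adjusted p = 0.0089, 0.0081, 0.0059, 0.020 and 0.038). Olfr703, Olfr722 and V1rd6 were not (limma adjusted p = 0.061, 0.088 and 0.25). Without tumour 11, 11 were called higher and 9 lower, against 6.48% and 5.97%, with all 9 genes named above among them. Leaving out any one of the other 10 tumours gave 3 or 4 higher and 1 to 3 lower, against 0.495% to 1.1% and 0.35% to 0.8% of all genes. Vmn2r8, Olfr703, Olfr553 and Olfr722 were called in each of the 11 fits without 1 tumour. With the slide as a random block, 18 were higher and 9 lower, against 5.65% and 6.27%, at an estimated correlation within slides of -0.16. After the brightness fit 5 were higher and 2 lower, against 1.69% and 1.98%.

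Signs were shared by few genes. In 6 members all 11 tumours were above 0 (4.72%), against 1.04% of all genes, and in 4 all were below 0 (3.15%), against 0.921%. Beside 8 of the called genes these were Vmn2r116 and Vmn2r24. Vmn2r116, a V2r receptor known to bind the male pheromone ESP1, lies in the cluster from Vmn2r111 to Vmn2r116 on chromosome 17. Vmn2r116 ranged from 0.01 to 0.34 with a mean of 0.12 ± 0.10 (limma adjusted p = 0.074). Vmn2r24, named here after its values were seen, had 4 probes and the narrow range of -0.11 to -0.01, with a mean of -0.07 ± 0.03 (limma adjusted p = 0.060). With tumour 11 turned, 6 members were above 0 in all tumours and 1 below, against 2.99% and 2.45% of all genes. These 6 were Olfr1226, Olfr1355, Olfr1477, Olfr273, Olfr615 and Vmn2r54. None of them is among the 6 as labelled, since turning changes the sign of every value of tumour 11.

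Other members took opposite signs in different tumours. In 56 members (44.1%) the deviation was below 0 in tumour 9 and above 0 in tumour 11 as labelled, against 37.0% of all genes, and in 30 (23.6%) it was the reverse, against 38.9%. Turned, tumour 11 puts the 56 below 0 in both tumours and the 30 above 0 in both. Between pairs of tumours, the correlation over the 127 genes ran from -0.53 (tumours 4 and 11) to 0.80 (tumours 4 and 5), with a median of 0.31. Of 55 pairs 8 were below 0, and each of the 8 held tumour 11, so these change sign when it is turned. Turning also makes its pairs with tumours 2 and 6 negative, which had r = 0.055 and 0.40 as labelled. After the brightness fit, as labelled, tumours 4 and 11 had r = -0.45, tumours 6 and 11 had 0.60 and tumours 4 and 5 had 0.63.

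Vmn2r54, a V2r gene on chromosome 7 with 1 probe of brightness 10.99, had 0.11, 0.30, 0.26, 0.59, 0.52, 0.19, 0.63, 0.43, 1.16, 0.60 and -0.65 in tumours 1 to 11. As labelled it was above 0 in 10 tumours and below 0 in tumour 11, and with tumour 11 turned it was above 0 in all. The mean was 0.38 ± 0.44 (limma adjusted p = 0.13). After the brightness fit it had 0.57 in tumour 9 and -0.17 in tumour 11. Olfr1355 on chromosome 10, whose probe had brightness 11.55, showed the same pattern, with 1.096 in tumour 9 and -0.59 in tumour 11 and, after the fit, 0.31 and 0.02.

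Vmn2r16, in the chromosome 5 cluster, had -0.18, -0.21, -0.28, -0.92, -0.41, -0.07, -0.61 and 0.25 in tumours 1 to 8, and -0.27 and 0.34 in tumours 10 and 11. Of these values, those of tumours 8 and 11 were above 0 as labelled. Its 3 probes, a, b and c, had GC contents of 30.0%, 23.3% and 36.7% and brightness 8.28, 7.39 and 8.93. All 3 were dim in tumour 9, so no value is given there, and 2 of the 3 were dim in tumours 4 and 11. The brightness fit gave -0.22 in tumour 11.

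Vmn2r81 in the chromosome 10 cluster had -0.41 in tumour 7 and 1.08 in tumour 11, both past 3 robust SDs of all genes with a like number of probes. Turned, tumour 11 gave -1.08, and both values are then below 0. Its probes disagreed. The dimmest, printed above with brightness 7.19, had 2.12 in tumour 11, and the others had 0.87 and 0.10. That probe was dim in tumours 4, 5, 7, 8, 9 and 11. Vmn2r15 passed above and below in tumours other than tumour 11, with 0.41 in tumour 2 and -0.51 in tumour 7, each resting in part on a probe that was dim there.

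**Figure D5:**
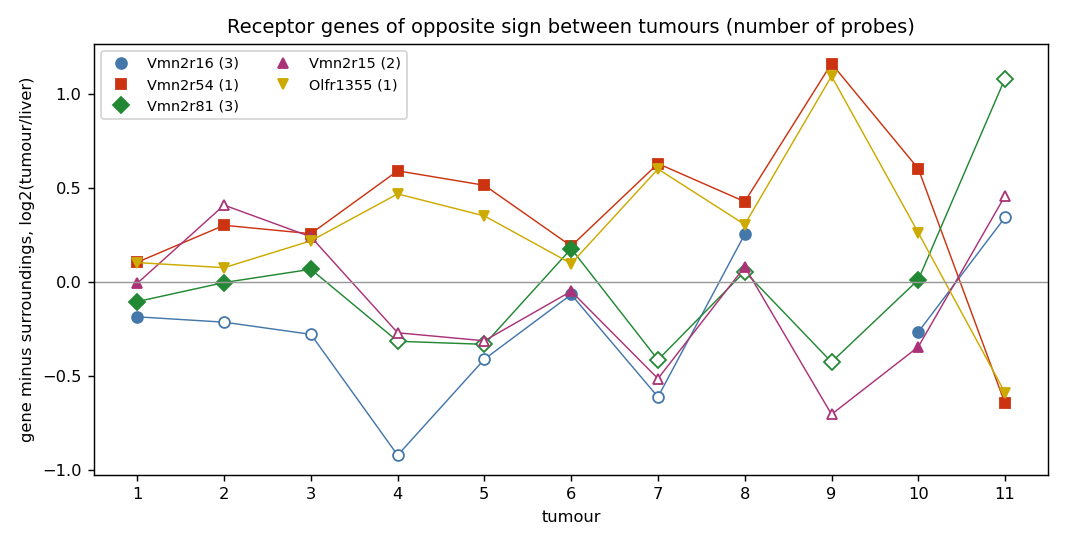
Local deviation (log2, vertical axis) of 5 receptor genes, with their number of probes, in tumours 1 to 11. Open symbols mark tumours in which at least 1 probe of the gene was dim, and no point is drawn where all were. Vmn2r54 and Olfr1355 peak in tumour 9 at 1.16 and 1.096 and, as labelled, lie below 0 in tumour 11, where Vmn2r81 has 1.08.

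Per tumour, a gene was counted at 3 robust SDs of all autosomal genes with a like number of probes. Of 1397 pairs of member and tumour, 15 were higher (1.07%) and 14 lower (1.00%), against 0.806% and 0.734% of all genes. They fell on 18 members, and 7 members passed in at least 2 tumours. Tumour 2 held 7 of the higher pairs and tumour 7 held 6 of the lower ones. Of the 14 lower pairs 13, and of the 15 higher pairs 8, included a probe that was dim in that tumour. With such spots left out, 8 higher and 3 lower pairs were counted, against 0.697% and 0.571% of all pairs of gene and tumour. The brightness fit left 21 higher and 7 lower, against 0.979% and 0.658%.

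Olfr1164 on chromosome 2 and Vmn2r16 passed in the most tumours, 4 each, of which tumour 9 for Vmn2r16 rests on dim probes alone. The Olfr1164 probe was dim on all 11 arrays, at a brightness of 6.59. Since it was not well above background, no fold is given for it. Vmn2r77, a V2r gene on chromosome 7, passed below in tumours 3 and 7 at -0.29 and -0.47, with 1 of its 3 probes dim in both. Vmn2r105 on chromosome 17 passed above in tumours 2 and 3 at 0.39 and 0.49, with 1 of its 3 probes dim in tumour 2. Vmn2r91 passed above in tumour 3 at 0.36. It also passed in tumour 7, where both its probes were dim and 1 had a deposited log ratio of 0. With spots of log ratio 0 left out, 0 members passed higher in tumour 7, and the authors' deposited table gives Vmn2r91 a deviation of 0.16 there. In tumour 2, Vmn2r17 had 0.54 with 1 of its 2 probes dim, and the only probe of Olfr741 was dim. The deposited log ratio was 0 at 2827 spots of tumour 2, including 6 receptor probes. With such spots left out, 4 members passed higher in tumour 2.

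As labelled, the 5 members with 6 or more probes were each highest in tumour 11. With tumour 11 turned, Vmn2r-ps11 (-0.40), Vmn2r60 (-0.30) and Vmn2r99 (-0.09) are lowest there. Besides Vmn2r99 and Olfr56, these were Vmn2r-ps11, a V2r pseudogene on chromosome 3 with 10 probes, Vmn2r60 with 9 and Vmn2r80 with 6. Vmn2r-ps11 ranged from -0.16 in tumour 1 to 0.40 in tumour 11 around a mean of 0.00 ± 0.16. Vmn2r60 ranged from -0.13 in tumour 4 to 0.30 in tumour 11 (mean 0.02 ± 0.13), and Vmn2r80 from -0.52 in tumour 9 to 0.46 in tumour 11 (mean -0.06 ± 0.24). None of the 5 passed the test (lowest limma adjusted p = 0.35, for Olfr56).

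The 6 V1r genes, which encode receptors for small volatile cues, had too few probes to form a cluster. Besides V1rd6 and V1ra1, the largest mean was that of V1rc15 on chromosome 6 at 0.20 ± 0.31 (limma adjusted p = 0.25), with 0.86 in tumour 9 and -0.32 in tumour 11. V1ra2, the only V1r gene with 2 probes, stayed between -0.12 and 0.18 (mean 0.05 ± 0.09). V1rf2 on chromosome 17 had -0.50 in tumour 9 and 0.50 in tumour 11, and V1rk1 on chromosome 7 ranged from -0.25 to 0.30.

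The chromosome 15 odorant receptors Olfr286, Olfr287 and Olfr288, named after their values were seen, lie next to each other on the array with 1 probe each. In tumour 9, Olfr288 had 0.98, Olfr287, the brightest of the 3 at 10.35, had -0.35, and the probe of Olfr286 was dim. In tumour 11, as labelled, Olfr287 had 0.14 and Olfr286 had 0.74, and the probe of Olfr288 was dim.

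In the other clusters the leading genes, those with the largest single deviation, mostly peaked in tumours 9 and 11. In tumour 11, as labelled, Vmn2r58 had 1.30, Vmn2r72 had 0.62, Olfr69 had 0.54 and Vmn2r1 had 0.55. In tumour 9 the only probe of Vmn2r58, Vmn2r72 and Olfr69 was dim, and Vmn2r1 had -0.35 with 1 of its 2 probes dim. Vmn2r114 on chromosome 17 had 0.87 in tumour 11, where neither of its probes was dim, and between -0.30 and 0.29 elsewhere. Vmn2r25 on chromosome 6 was lowest in tumour 5 at -0.54.

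Widely studied receptors on the array did not pass the test. Olfr78, a class I receptor that also serves in the carotid body and kidney, had a mean of 0.04 ± 0.18 (limma adjusted p = 0.70), from -0.39 in tumour 11 to 0.36 in tumour 9. Vmn2r26, a V2r receptor much used as a marker of its neurons, had -0.02 ± 0.14 (limma adjusted p = 0.86), and V1ra1 had 0.13 ± 0.28 (limma adjusted p = 0.40).

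Genes that act with the receptors had no call with all 11 tumours. Of 43 olfactory signalling, receptor transport and axon guidance genes, 35 had probes, 491 in all. In limma 0 were called, 3 had an unadjusted p below 0.05, and the median of their means was 0.01. Lbr, which encodes a nuclear envelope protein that shapes receptor gene compartments, had 0.10 ± 0.11 (limma adjusted p = 0.16). Trpc2, the vomeronasal transduction channel, had 0.07 ± 0.09 (limma adjusted p = 0.28), and Adcy3, the odorant-activated adenylyl cyclase, had -0.09 ± 0.14 (limma adjusted p = 0.30).

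Of 20 genes of other chemoreceptor families, such as the formyl peptide, taste and Ms4a receptors, 1 was called, lower (5.0%, against 0.99% of all genes). Fpr2, a formyl peptide receptor with 1 probe on chromosome 17, fell by 0.39 ± 0.32 (limma adjusted p = 0.044) and was below 0 in 9 of 11 tumours. Of 352 genes in other multigene families, limma called 5 higher (1.42%) and 4 lower (1.14%), near the 1.27% and 0.99% of all genes, with a median mean of 0.00. Without tumour 11 the calls in this list were 58, and 3 to 9 without any one other tumour. Without tumour 11 there were also 6 calls among the other chemoreceptors and 4 among the signalling genes. In that fit 6.48% of all genes were called higher and 5.97% lower.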

How the data were processed

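Per the labels, tumour DNA (Cy5) and liver DNA (Cy3) were hybridised to 2-colour Agilent mouse arrays. The deposited scanner files give spot intensity, background-subtracted and dye-normalized by the authors' software, Feature Extraction 10.5.1.1, or 11.0.1.1 for slide 2 per the file headers. The submitters' processing notes also name Partek. The deposited LogRatio is log10 of red over green. The authors' value table, used as an alternative, is in log2. Slides 1, 2 and 3 held tumours 2, 3 and 8, tumours 4, 7, 9 and 11, and tumours 1, 5, 6 and 10.

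Log2 ratios of processed signals were averaged over a probe's spots without outlier flags and centred on the array median, with no loess. Gene values were tested against 0 over all 20003 gene names with limma 3.58.1 (R 4.3.3, intercept, empirical Bayes, two-sided, Benjamini-Hochberg). For a self-test, the mean of each of 19985 genes was removed from its values and array signs were drawn at random. Of shifts then added, 47 of 100 of 0.2 and 79 of 100 of 0.4 were recovered, with 0 false calls. Any deviation shared by all tumours was removed with the means, so false calls from such deviations were not tested. Robust SDs were taken within classes of 1, 2, 3 to 5, and 6 or more probes. With 11 arrays and 1 per animal, the number of arrays limits the precision.

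Members, lists and tests were chosen with earlier results of these data known. Genes were named if called, if past the per-tumour limit in most tumours or in both directions, if leading a cluster, or if widely studied. Alternatives are in the closing section. The normexp alternative used median spot signals, since mean signals are not in every file used here. Exon and intron positions of probes were not analysed here.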

Additional observations from a re-analysis of the deposited data

How the results depend on the processing

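The mean over tumours of none of the 9 called members changed sign under any alternative run. Turning tumour 11 turns its own values by construction, among them its 5 cluster values past the limit. The replicate numbers name single tumours of 1 group. Tumour and liver of an animal were hybridised to the same array, so each log2 ratio already pairs them. The labels give 1 group, and no further pairing was used.

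Members called higher numbered 11 with normexp, 10 with tumour 11 turned, 11 without the 2 noisiest arrays (tumours 9 and 11), 18 with the slide block and 0 with at least 3 probes per gene, and 3 to 11 without 1 tumour. Members called lower numbered 8, 15, 8, 9 and 0 in the same order, 1 within 10 Mb, without dim spots or with the GC fit, and 1 to 9 without 1 tumour. Of all genes, 7.48% were called higher and 7.13% lower with tumour 11 turned. The shares were 5.65% and 6.27% with the slide block, and 6.48% and 5.97% without tumour 11. For normexp and without the 2 noisiest arrays no share of all genes is given here, so those counts stand without a background. Receptor stretches called higher numbered 1 with normexp. Those called lower numbered 2 with tumour 11 turned, 1 without the 2 noisiest arrays and 0 to 1 without 1 tumour.

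Pairs of member and tumour past the limit were 8 higher and 6 lower with normexp, 8 and 3 without dim spots, 4 and 7 at 4 robust SDs and 45 and 38 at an absolute 0.5, and 21 and 7 after the brightness fit. Without 1 tumour they were 8 to 15 higher and 8 to 14 lower. For normexp, 4 robust SDs and an absolute 0.5 no share over all pairs is given here. Cluster pairs past the limit were 1 higher and 11 lower with tumour 11 turned, 0 and 2 without the 2 noisiest arrays, 10 and 11 at a limit of 0.15, and 3 lower with normexp, without dim spots, with the GC fit or at a limit of 0.3. They were 0 lower after the brightness fit, and 1 to 6 higher and 2 to 6 lower without 1 tumour. Clusters past the limit in both directions numbered 0 with normexp, without dim spots, with tumour 11 turned, without the 2 noisiest arrays or after the brightness fit, 1 with the GC fit or at 0.3, and 0 to 3 without 1 tumour.

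Calls among olfactory signalling genes, other chemoreceptors and other multigene families were 1, 3 and 31 with normexp, 4, 6 and 66 with tumour 11 turned, 3, 7 and 53 without the 2 noisiest arrays, 1, 2 and 14 after the brightness fit, and 2, 3 and 56 with the slide block. Within 10 Mb, 0 other chemoreceptors were called, and with at least 3 probes 0 chemoreceptors and 1 gene of other families. Without 1 tumour they ran from 0 to 4, 0 to 6 and 3 to 58. Of all genes too, more were called with tumour 11 turned, without it or with the slide block, at the shares given above. The causes were not tested, except that fewer genes enter with at least 3 probes. The brightness fit and the removal of spots with a deposited log ratio of 0 were chosen after seeing the data. Most members rest on 1 probe, and signal over background limits the dim ones.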
